A study of Homo sapiens with 5 samples.

Results

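Large ribosomal subunit assembly factors are the proteins that build the 60S subunit without remaining in it. The group examined here held 46 such genes, listed by name for their part in pre-60S assembly, in loading of the 5S ribonucleoprotein (RNP) or in export, and 41 of them had a row under that symbol in a table of 13638 rows. NOP53 and EFL1 were present under the older symbols GLTSCR2 and EFTUD1, were matched by transcript identifier, and are described apart from the counts over the 41. NMD3, PELP1 and WDR74 were not analysed here. The values were ribosome footprints, the stretches of mRNA that ribosomes shield from nuclease, counted in 2 libraries of wild-type HAP1 cells and 3 libraries of HAP1 cells with a ZCCHC4 knockout. HAP1 is a near-haploid human cell line that goes back to a chronic myeloid leukaemia, and ZCCHC4 is the methyltransferase that places N6-methyladenosine on 28S rRNA. The labels do not say whether the knockout was 1 clone or how it was made, nor whether libraries of a genotype came from separate cultures, so each p-value rests on a spread between libraries that may be technical only.

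The pre-60S particle starts in the nucleolus on the precursor of 28S and 5.8S rRNA, where scaffolding proteins, helicases and the PeBoW complex fold it. The 5S RNP then docks, the second internal transcribed spacer (ITS2) is cut away, and AAA ATPases and GTPases strip off factors in order as the particle moves through the nucleoplasm to the cytoplasm. The modified base that ZCCHC4 writes lies in the rRNA of this subunit. Growing cells make large amounts of assembly factors, and many of their genes carry a binding site for MYC near the start.

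Total counts were 5302160 and 4887380 for the wild-type libraries and 29191146, 16940732 and 31557573 for knockout replicates 1 to 3, so depth and genotype moved together and their part in the results cannot be told apart. The wild-type pair differed little (chi-square per degree of freedom 1.14), as did knockout replicates 1 and 3 (2.97). Knockout replicate 2 differed from those by 27.7 and 24.6. It entered the main fit like the other libraries and was left out only in an alternative fit. ZCCHC4 itself was measured at 16.0 and 13.3 CPM (the count as a share of a library total adjusted by TMM factors) in wild type and at 3.85, 3.41 and 4.98 CPM in the knockout, a log2 fold change of -1.82 ± 0.20 (SE) with an edgeR adjusted p of 7.27e-05. Of 7 haematopoietic markers, 2 had a row (CD34 and KIT), and their sum was 10.9 and 12.5 CPM in wild type against 1.36, 1.86 and 1.69 CPM in the knockout. All 3 mesenchymal markers had one, with sums of 419 and 433 CPM against 718 to 756 CPM: VIM rose (log2 fold change 1.95 ± 0.08), CDH2 rose (0.24 ± 0.07) and FN1 fell (-1.26 ± 0.08). Of 4 epithelial markers, 3 had a row, with sums of 145 to 154 CPM against 135 to 157 CPM: EPCAM rose (1.82 ± 0.29), from 1.21 and 1.49 CPM to between 4.21 and 5.17 CPM, and KRT18, which makes up most of the sum, was at -0.11 ± 0.10 (edgeR adjusted p = 0.366). Lineage markers thus also differed between genotypes, and their part in the results was not tested.

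The assembly factors did not move as a block. Of the 41, 18 (43.9%) were higher in the knockout, against 30.2% of all 11205 rows tested, and 9 (22.0%) were lower, against 29.8% of all rows. The other 14 did not pass (edgeR quasi-likelihood test, Benjamini-Hochberg adjusted p under 0.05 over all tested rows). All 41 passed the filter on low counts. Their median log2 fold change was 0.21 beside 0.02 over all tested rows, and the middle of the group ran from -0.16 to 0.56 (quartiles) where all rows ran from -0.53 to 0.51. Changes were moderate: 4 members (9.76%) rose at least 2-fold beside 10.0% of all rows, and these were the only members past 2-fold in either direction, beside 23.2% of all rows. The largest fall, in PPAN, was -0.78 on the log2 scale. Genotypes were separated without overlap of any library in 33 members (80.5%, beside 76.4% of all rows), in 22 with the knockout higher (38.5% of all rows) and in 11 with it lower (37.9% of all rows). Footprints follow both the amount of mRNA and its occupancy by ribosomes, which were not separated here, and CPM show only shares relative to other genes. In 10 members (BRIX1, CEBPZ, DDX54, LSG1, MAK16, MDN1, NOP16, NVL, PA2G4 and SBDS) coding exons overlap an exon of a gene on the opposite strand. Strand handling is not given in the sources used here, so reads of such pairs cannot be told apart where they overlap.

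**Figure D1:**
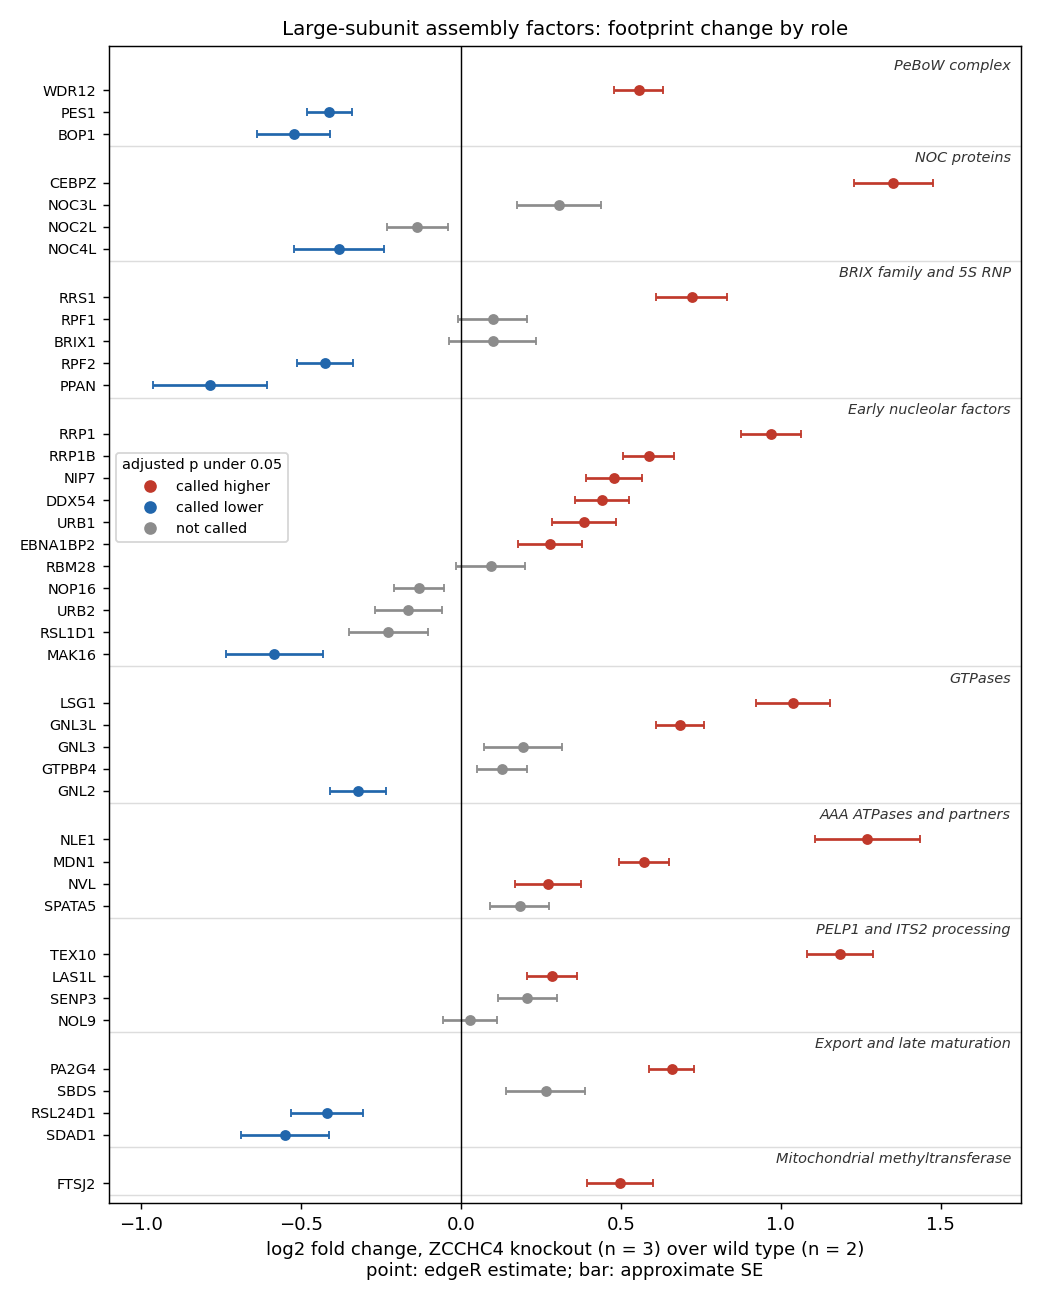
Log2 fold change of the 41 assembly factors (knockout over wild type, horizontal axis), grouped by role, with points for the edgeR estimates and bars for approximate SE. Rises and falls occur side by side in 6 of the 9 roles, and the 4 rightmost points are CEBPZ, NLE1, TEX10 and LSG1.

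The split of 18 and 9 depended on scaling and on single libraries. Plain library totals gave 14 higher and 13 lower, with a members' median of -0.01, a setting that moved the median of all rows by -0.22. Without knockout replicate 2 it was 27 higher and 12 lower, in a fit that called 8176 of all 11161 rows, beside 6721 of 11205 in the main fit. Leaving out wild-type replicate 1 or 2 leaves a single wild-type library, and the members' median was then 0.21 or 0.22. Of the 9 falls, those of BOP1 and PES1 passed with each library left out in turn, but both lost their call when near-identical libraries were summed (the wild-type pair, and knockout replicates 1 and 3). The rises of DDX54, NIP7 and FTSJ2 lost their call in that fit as well. MAK16, RSL24D1 and GNL2 lost their call without either wild-type library, RPF2 and SDAD1 without wild-type replicate 2, and the rises of LAS1L, URB1, EBNA1BP2 and NVL without either wild-type library. The 11 members called in the same direction under all 14 other fits were all higher: CEBPZ, GNL3L, LSG1, MDN1, NLE1, PA2G4, RRP1, RRP1B, RRS1, TEX10 and WDR12. No called member changed sign in any of those fits. How many of all tested rows kept their call in each of those fits was not counted. Some of the fits called fewer of all rows, such as DESeq2 with 6248 beside 6721 of 11205 in the main fit. Taking the residual from a regression of log2 fold change on level, GC content and coding length over all rows lowered WDR12 from 0.56 to 0.27 and PA2G4 from 0.66 to 0.28, raised MDN1 from 0.57 to 0.92, and moved RPF2 from -0.43 to -0.98 and RSL24D1 from -0.42 to -1.01. EBNA1BP2 was the called member whose sign turned in that residual, from 0.28 to -0.03.

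Summed over the 41 members, footprints came to 6354 and 6410 CPM in wild type and to 7327, 6711 and 7303 CPM in the knockout. As a share of raw counts, before scaling, the members took 0.695% and 0.703% of the wild-type libraries but 0.685%, 0.640% and 0.684% of those of the knockout. The sum was thus higher in all 3 knockout libraries after scaling and lower in all 3 as a plain share.

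The sequences near the starts of these genes were compared because MYC binds the E-box, the palindrome CACGTG, which reads the same on both strands. RefSeq windows of 300 bases (250 before to 50 after the start, build GRCh38.p14) whose start lay within 500 bases of that of the counted transcript were found for 33 of the 41. The motif was in 9 of them (27.3%), beside 10.3% of the windows of 8607 tested genes and 7.26% of all 35116 windows. It was in 5 of 15 members that rose, 3 of 6 that fell and 1 of 12 that did not pass, so it was found on both sides of the change. Over all tested genes with a window, it was in 11.9% of those called higher and 8.9% of those called lower. Stretches of 30 bases around it are shown, with the E-box in capitals, for members that rose (NLE1, TEX10, MDN1, DDX54) and members that fell (GNL2, PES1, SDAD1).
NLE1: ctctttctcctcCACGTGgggacgcaggat
TEX10: gcgggctgcgatCACGTGagcacagcaggg
MDN1: tttctgtcccacCACGTGctgtgttcgcga
DDX54: ctcagcggaggtCACGTGgtcaccgcacct
GNL2: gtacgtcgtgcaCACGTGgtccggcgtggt
PES1: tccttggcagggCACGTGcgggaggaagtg
SDAD1: tacatgctaacaCACGTGaaaaaatttaca
The stretches lie on the minus strand at chr17:35142274-35142303 for NLE1, chr9:100352955-100352984 for TEX10, chr6:89819932-89819961 for MDN1, chr12:113185522-113185551 for DDX54, chr1:37595917-37595946 for GNL2, chr22:30591880-30591909 for PES1 and chr4:75991156-75991185 for SDAD1. Outside the E-box the bases differ between genes, and the motif begins 30 bases before the start in TEX10, 12 bases after it in NLE1 and 13 bases after it in PES1. MDN1 holds a second E-box, not shown, 27 bases after its start. That of EBNA1BP2, which rose, begins 42 bases after the start, and a stretch around it would run past the window. A match is a description of these letters, and binding was not measured.

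Within the PeBoW complex the subunits moved apart. WDR12, the subunit that the ATPase MDN1 pulls on, was measured at 111 and 107 CPM in wild type and at 158, 158 and 165 CPM in the knockout (log2 fold change 0.56 ± 0.08, SE; edgeR adjusted p = 2.67e-04), and 18.7% of its 28-nt coding windows also occur in other annotated transcripts. The scaffold PES1 went the other way, from 247 and 243 CPM to 181, 183 and 189 CPM (-0.41 ± 0.07, edgeR adjusted p = 8.28e-04). BOP1, which links the other subunits, was at 228 and 222 CPM in wild type and at 139, 182 and 149 CPM in the knockout (-0.52 ± 0.11, edgeR adjusted p = 0.00334). The calls of PES1 and BOP1 did not hold with near-identical libraries summed, and that of WDR12 did. The genotypes did not overlap for any of the 3, as for 76.4% of all tested rows. The SEs are far smaller than the distance between WDR12 and its partners, but they rest on a spread between libraries that may be technical only. Per kilobase of coding sequence, the scale on which levels of different genes can be compared, wild-type levels were 139 ± 1.36 CPM for PES1, 101 ± 1.97 CPM for BOP1 and 85.9 ± 2.29 CPM for WDR12 (SD, n = 2), while knockout levels were 104 ± 2.30, 70.05 ± 10.2 and 126 ± 3.14 CPM (SD, n = 3). WDR12 therefore had the lowest density of the 3 in both wild-type libraries and the highest in all 3 knockout libraries. The mean ratio of WDR12 to PES1 density was 0.619 over the wild-type libraries and 1.21 over the knockout libraries.

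**Figure D2:**
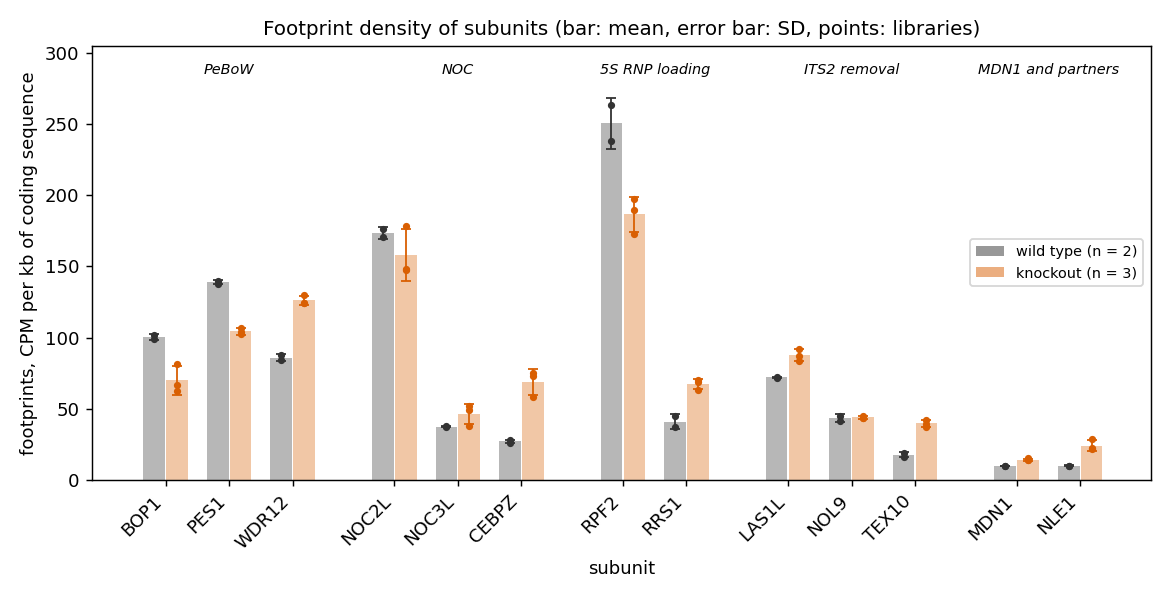
Footprints per kilobase of coding sequence (CPM per kb, vertical axis from 0) for subunits of 5 complexes or steps, with bars for group means, error bars for SD and points for libraries. WDR12 stands below BOP1 and PES1 in wild type and above both in the knockout, and CEBPZ and TEX10 rise beside partners that change less.

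The NOC proteins, scaffolds of early and middle nucleolar particles, gave the largest rise of the group next to a fall. CEBPZ, the human counterpart of yeast Noc1, was measured at 82.3 and 88.1 CPM in wild type and at 236.7, 183.5 and 231.6 CPM in the knockout, a rise of 2.55-fold (log2 1.35 ± 0.12, edgeR adjusted p = 2.20e-05). Its 16 exons lie at GRCh38 chr2:37201612-37231713 and overlap CEBPZOS on the other strand. Its partner NOC2L, which is also known as a transcriptional repressor, averaged 390 ± 9.39 CPM over wild-type libraries (SD, n = 2) against 355 ± 40.4 CPM over knockout libraries (SD, n = 3; adjusted p = 0.240 by edgeR) and overlapped between genotypes, and 37.2% of its coding windows are shared with pseudogenes. NOC3L had a log2 fold change of 0.31 ± 0.13 (edgeR adjusted p = 0.0684), and knockout replicate 2 at 91.5 CPM lay close to the wild-type libraries at 89.7 and 90.0 CPM. The density ratio of CEBPZ to NOC2L was 0.152 and 0.158 in the wild-type libraries against 0.506, 0.325 and 0.498 in the knockout. NOC4L is listed with this group although its yeast counterpart acts in 40S assembly. It fell from 70.4 and 71.3 CPM to 49.4, 65.8 and 48.4 CPM (-0.38 ± 0.14, edgeR adjusted p = 0.0408), a call lost on leaving out any library except knockout replicate 2.

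**Figure D3:**
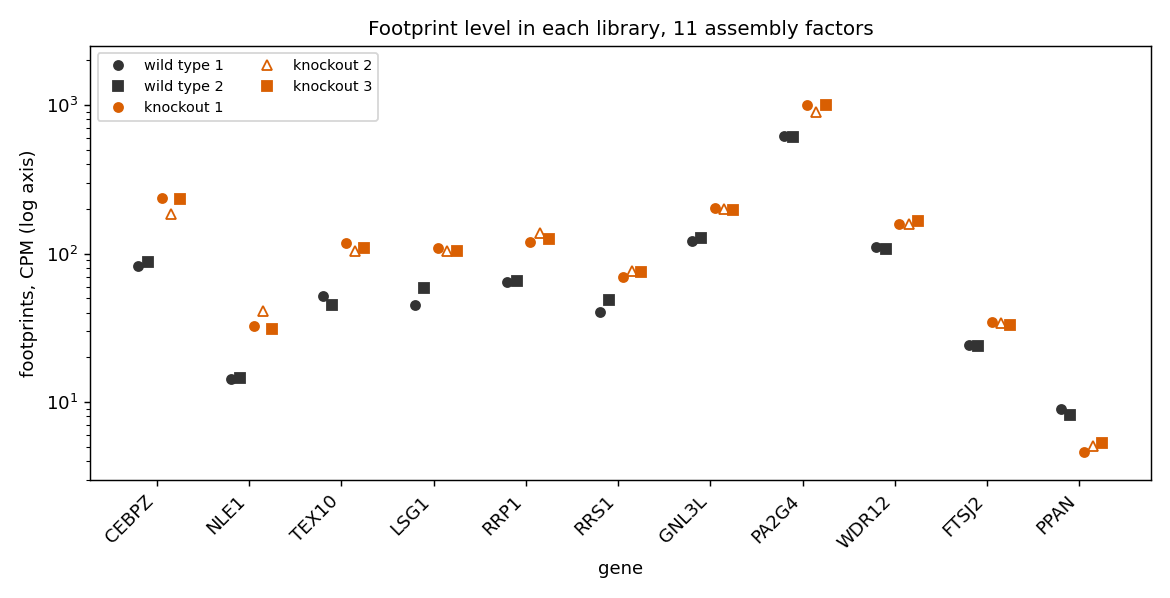
Footprint level (CPM, log axis) in each of the 5 libraries for the 11 assembly factors named in full. In every one of these genes the 3 knockout libraries lie on the same side of both wild-type libraries, above them in 10 genes and below them in PPAN. The genes were picked for the size or adjusted p of their change, which favours such separation, and 76.4% of all tested rows show it.

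RRS1 and RPF2, which together place the 5S RNP on the particle, changed in opposite directions. RRS1 rose from 40.5 and 48.9 CPM to 69.2, 76.9 and 74.9 CPM (0.72 ± 0.11, edgeR adjusted p = 4.52e-04). RPF2 was at 218 and 242 CPM in wild type and at 181, 159 and 174 CPM in the knockout (-0.43 ± 0.09, edgeR adjusted p = 0.00236), and the ratio of RRS1 to RPF2 density went from 0.155 and 0.170 to 0.320, 0.406 and 0.361. About 25.5% of the 28-nt windows of the RPF2 coding sequence also occur in transcripts of another gene, mainly the pseudogene RPF2P1. Of the ribosomal proteins of the 5S RNP, RPL11 rose (0.37 ± 0.06) and RPL5 was at -0.04 ± 0.08 (edgeR adjusted p = 0.716). The other proteins with a BRIX domain, an RNA-binding fold, were BRIX1 (0.10 ± 0.14), RPF1 (0.10 ± 0.11) and PPAN. BRIX1 and RPF1 overlapped between genotypes, and the ratio of RPF1 to BRIX1 density kept between 0.867 and 1.02 in all 5 libraries.

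PPAN had the lowest level of the group and the largest fall. It was measured at 8.97 and 8.21 CPM in wild type (52 and 44 counts) and at 4.58, 5.08 and 5.315 CPM in the knockout, a log2 fold change of -0.78 ± 0.18 (edgeR adjusted p = 0.00421), and the call was lost without wild-type replicate 1. Of its 28-nt coding windows, 94.5% are shared with the annotated read-through transcript PPAN-P2RY11. How the authors assigned such reads is not given in the sources used here, so the level of PPAN is uncertain.

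Of 11 early nucleolar factors, 6 rose, 1 fell and 4 did not pass, beside 30.2% higher and 29.8% lower over all tested rows. RRP1 was measured at 64.7 and 65.5 CPM in wild type and at 119.5, 137.1 and 126.2 CPM in the knockout (0.97 ± 0.09, edgeR adjusted p = 3.07e-05). Its paralog RRP1B, which also targets protein phosphatase PP1 to the nucleolus, rose from 130 and 121 CPM to 189, 182 and 194 CPM (0.59 ± 0.08, edgeR adjusted p = 2.23e-04). The paralogs share no 28-nt coding window with each other or with any other annotated gene, so their footprints can be told apart. Smaller rises were found for NIP7, which is also needed for pre-rRNA cleavage (0.48 ± 0.09), the RNA helicase DDX54 (0.44 ± 0.08), the scaffold URB1 (0.39 ± 0.10) and EBNA1BP2, a partner of BRIX1 (0.28 ± 0.10). The EBNA1BP2 call held in 4 of the 14 other fits, and its residual was -0.03.

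MAK16, a zinc-binding partner of RPF1, was the early factor that fell, from 97.4 and 101 CPM to 73.9, 51.3 and 72.9 CPM (-0.58 ± 0.15, edgeR adjusted p = 0.00856). It lies on the short arm of chromosome 8, GRCh38 position 33484750 to 33501260, where 72.5% of 138 tested genes below 45 Mb were lower in the knockout and the median log2 fold change was -0.88. The fall of MAK16 was thus smaller than the median of its neighbours on that arm, and the part of the location in it was not tested. The remaining early factors were the RNA-binding protein RBM28 (0.09 ± 0.11), NOP16 (-0.13 ± 0.08), URB2 (-0.16 ± 0.11) and RSL1D1 (-0.23 ± 0.12). RSL1D1, a nucleolar protein with a ribosomal L1 domain, was read at 575 and 588 CPM in wild type and at 552, 401 and 536 CPM in the knockout, so its libraries did not overlap although it did not pass (edgeR adjusted p = 0.140). NOP53, found as GLTSCR2, which recruits the RNA exosome to the ITS2 remnant, fell by 0.45 ± 0.09 on the log2 scale, and 32.0% of its coding windows are shared with another gene.

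GTPases that act as placeholders and checkpoints gave 2 rises, 1 fall and 2 that did not pass. Of all tested rows, 30.2% were higher and 29.8% lower. LSG1, the cytoplasmic GTPase that frees the export adaptor NMD3, was measured at 45.2 and 58.4 CPM in wild type and at 109.5, 104.6 and 104.6 CPM in the knockout (1.04 ± 0.11, edgeR adjusted p = 6.88e-05), from 14 exons at chr3:194640788-194672477. GNL3L, a nucleolar GTPase, rose from 121.6 and 127.5 CPM to a range of 196.5 to 204.0 CPM over the knockout libraries (0.68 ± 0.08, edgeR adjusted p = 6.77e-05). Its better known paralog GNL3, or nucleostemin, was at 330 and 344 CPM in wild type and at 430, 315 and 411 CPM in the knockout, and overlapped (0.19 ± 0.12). GNL2, a GTPase of nuclear particles, fell from 351 and 338 CPM to 293, 247 and 287 CPM (-0.32 ± 0.09, edgeR adjusted p = 0.0110). GTPBP4, a GTPase of nucleolar particles, was at 0.13 ± 0.08. EFL1, found as EFTUD1, the GTPase that works with SBDS to release EIF6, was at 0.09 ± 0.09 (edgeR adjusted p = 0.397), with 26.8% of its coding windows shared.

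All 4 AAA ATPases and partners had a log2 fold change above 0, and 3 of them passed, beside 30.2% of all tested rows called higher. NLE1, the adaptor on which MDN1 pulls in the nucleoplasm, was measured at 14.3 and 14.6 CPM in wild type and at 32.7, 41.3 and 31.1 CPM in the knockout, a 2.41-fold rise (1.27 ± 0.17, edgeR adjusted p = 1.75e-04), from 13 exons at chr17:35131347-35142315. MDN1, a giant dynein-like ATPase, rose from 161 and 158 CPM to 228, 252 and 233 CPM (0.57 ± 0.08, edgeR adjusted p = 2.30e-04). WDR12 and NLE1, which MDN1 acts on in turn, thus rose with it, while PES1 and BOP1, the PeBoW partners of WDR12, fell. As residuals on level, GC content and coding length, MDN1 was at 0.92, WDR12 at 0.27 and NLE1 at 1.33. The density ratio of WDR12 to MDN1 was 9.13 and 8.94 in the wild-type libraries against 9.15, 8.31 and 9.36 in the knockout, while that of NLE1 to MDN1 went from 1.03 and 1.06 to 1.65, 1.89 and 1.54. NVL, which drives release of early factors, passed narrowly (0.27 ± 0.10, edgeR adjusted p = 0.0432), and its call held in 3 of the 14 other fits. SPATA5, the ATPase that removes RSL24D1 in the cytoplasm, was at 0.18 ± 0.09 (edgeR adjusted p = 0.114).

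Among factors of ITS2 removal, 2 of 4 rose, beside 30.2% of all tested rows, and 2 did not pass. TEX10, a scaffold of the PELP1 complex, had the smallest adjusted p of the group. It was measured at 52.1 and 45.2 CPM in wild type and at 118, 104.3 and 109.5 CPM in the knockout, a 2.27-fold rise (1.19 ± 0.10, edgeR adjusted p = 1.77e-05), from 15 exons at chr9:100302084-100352939. WDR18, another subunit of that complex and not on the member list, fell by 0.78 ± 0.13 on the log2 scale (edgeR adjusted p = 7.91e-04). LAS1L, the endonuclease that cuts ITS2, rose little (0.29 ± 0.08), and the kinase NOL9, which binds it, was at 0.03 ± 0.08 with overlapping libraries. The density ratio of TEX10 to LAS1L was 0.259 and 0.226 in the wild-type libraries against 0.506, 0.406 and 0.451 in the knockout. The SUMO protease SENP3 was at 0.21 ± 0.09 (edgeR adjusted p = 0.0792), and 87.6% of its coding windows are shared, mainly with the read-through SENP3-EIF4A1.

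Export and late maturation factors were split. PA2G4, a peptidase-like protein that sits at the exit tunnel, was measured at 616 and 613 CPM in wild type and at 1006, 903 and 1002 CPM in the knockout (0.66 ± 0.07, edgeR adjusted p = 5.41e-05). Of its coding windows 80.2% also occur in other annotated transcripts, mainly PA2G4P4, so part of its count could belong to copies. SDAD1, needed for export, fell from 135 and 150 CPM to 109.4, 78.3 and 103.2 CPM (-0.55 ± 0.14, edgeR adjusted p = 0.00693), and 31.3% of its windows are shared with copies. RSL24D1, the placeholder for a ribosomal protein, fell from 370 and 373 CPM to 292, 232 and 309 CPM (-0.42 ± 0.11, edgeR adjusted p = 0.0105), and 64.1% of its windows are shared with copies. SBDS, the protein altered in Shwachman-Diamond syndrome, was at 0.27 ± 0.12 (edgeR adjusted p = 0.0898) and overlapped, with 40.4% of its windows shared with SBDSP1. FTSJ2, now called MRM2, is a ribose methyltransferase of mitochondrial rRNA and so belongs to another ribosome than the rest. It rose from 24.3 and 23.7 CPM to 34.45, 34.06 and 33.28 CPM (0.50 ± 0.10, edgeR adjusted p = 0.00254).

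Levels spanned a wide range. Per kilobase of coding sequence, RSL24D1 (760 ± 5.41 CPM), PA2G4 (520 ± 1.80 CPM) and RSL1D1 (395 ± 6.25 CPM) were highest in wild type (SD, n = 2). PPAN (6.05 ± 0.376 CPM), MDN1 (9.51 ± 0.110 CPM) and NLE1 (9.92 ± 0.119 CPM) were lowest. In the knockout PA2G4 (821 ± 49.3 CPM) stood above RSL24D1 (568 ± 82.5 CPM; SD, n = 3), while in wild type the order was the reverse, and the libraries of these genes did not overlap in either genotype.

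Knockout replicate 2 departed from the other knockout libraries along GC content. It lay outside the range of replicates 1 and 3 for 35 of 41 members, below both in 21 and above both in 14. Of 14 members with a coding GC content under 45%, it was below both in 13, with a median ratio of 0.771 to their mean. Of 7 members above 60% it was above both in 6, with a median ratio of 1.21. Across the 41 genes, which are not independent replicates and share these libraries, Spearman's rho between GC content and this ratio was 0.81, beside 0.68 over 11158 tested rows. The rho between GC content and the genotype's log2 fold change was 0.07 across the members, beside -0.09 over 11158 tested rows. The part of GC content in the changes between genotypes was not tested.

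**Figure D4:**
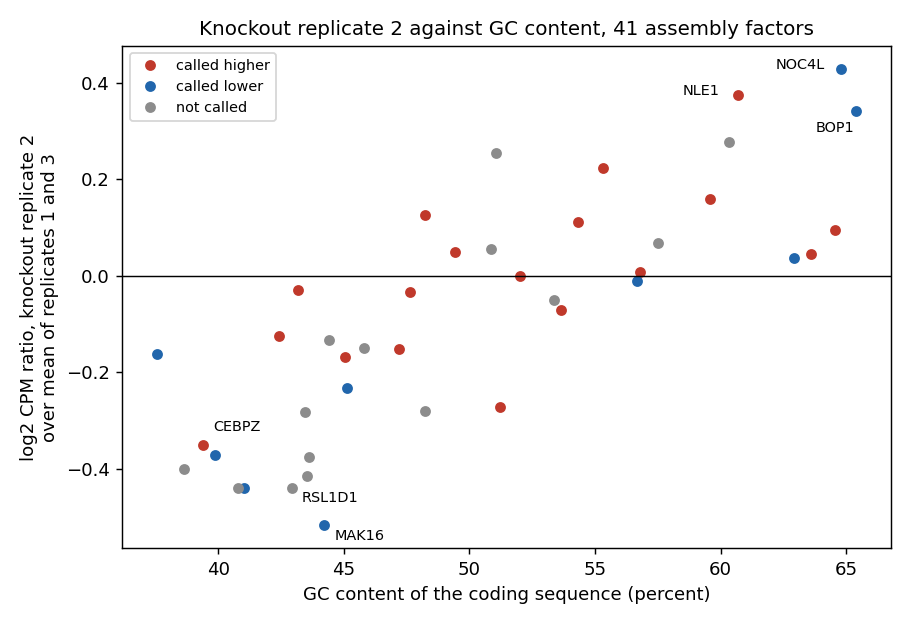
Log2 CPM ratio of knockout replicate 2 to the mean of knockout replicates 1 and 3 (vertical axis) against GC content of the coding sequence (percent, horizontal axis) for the 41 assembly factors, coloured by their call between genotypes. Members with low GC content lie below 0 and most members with high GC content above it, with called genes of both directions at both ends.

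Other pre-60S factors, from a list of genes outside the members, also moved both ways. Of 35 tested, 14 were higher, 6 were lower and 15 did not pass, beside 30.2% higher and 29.8% lower over all tested rows. Their median was 0.12 on the log2 scale. The rises with the smallest adjusted p were in NOP2, a cytosine methyltransferase of 28S rRNA (1.03 ± 0.09), FTSJ3, a ribose methyltransferase (0.82 ± 0.08), and the helicase DDX56 (0.91 ± 0.10). The corresponding falls were in the helicases DDX27 (-0.65 ± 0.08) and SKIV2L2, which feeds the exosome (-0.50 ± 0.08), and in WDR18. For 48 tested assembly factors of the 40S subunit the counts were 20 higher, 10 lower and 18 not passing, with a median of 0.11, led by rises of EMG1 (1.67 ± 0.11), BYSL (1.27 ± 0.10) and PDCD11 (0.90 ± 0.08) and falls of WBSCR22 (-0.72 ± 0.08), HEATR1 (-0.59 ± 0.07) and DIMT1 (-0.63 ± 0.08). The differences between these lists and the members were not tested.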

How the data were processed

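Per the labels' protocols, flash-frozen cells were lysed in a buffer with cycloheximide, lysates were digested with RNase I, and, once monosomes had been isolated, footprints were size-selected at 28 to 32 nt. Adapters carried randomized bases; whether these were used to remove duplicates is not stated there. Bowtie (version not given) and hg38 are named in the submitters' processing notes; for the counting tool, annotation, strand and handling of reads with several matches the entry is: not given in the sources used here. The authors deposited raw counts per transcript, not normalized, in a table whose header is shifted by 1 cell; columns were assigned by name after that shift. Transcripts were matched to GENCODE release 29 (13533 of 13638 rows), which gave positions, coding length and GC content.

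All 5 libraries entered a quasi-likelihood fit in edgeR 4.0.16 (R 4.3.3) with TMM factors and genotype alone. Rows were kept by filterByExpr (minimum count 10), and p-values were adjusted by Benjamini-Hochberg over 11205 rows. SE are approximate, the size of the log2 fold change divided by the square root of F. Alternatives used limma 3.58.1, DESeq2 1.42.0, other scalings, filters and left-out libraries. The procedure was also run on simulated counts drawn independently from the fitted dispersions. These held no GC-linked departure of a library, so that run cannot speak to knockout replicate 2. Shared coding windows of 28 nt were searched in all GENCODE transcripts on the sense strand. The members, roles and lists were chosen with earlier results of these data known. Named in full were ZCCHC4, members changed at least 2-fold, and in each role the member with the largest change and the one with the smallest adjusted p; from other lists, the 3 smallest adjusted p in each direction. Further members given by library, and other genes named, were chosen after their values were seen. Depth limits precision most in wild type, where 1 count was worth 0.172 and 0.187 CPM, against at most 0.0619 CPM in the knockout.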

Additional observations from a re-analysis of the deposited data

How the results depend on the processing

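Under 14 other fits, 11 of the 27 called members kept their call and direction in each, and none of the 27 changed sign. All tested rows were not counted in this way. Calls under upper quartile, RLE, DESeq2, limma-voom and the filters stayed within 1.5 times the counts of 18 higher and 9 lower. Leaving out 1 library gave 14 to 27 higher and 3 to 12 lower, with 3 and 4 lower without wild-type replicate 2 and 1. With near-identical libraries summed, which leaves a single wild-type sample assumed to vary like the knockout, the members' median was 0.21. Calls were lost there in both directions, such as the falls of BOP1 and PES1 and the rises of DDX54, NIP7 and FTSJ2. At 1.5-fold or more in the main fit, 9 members were higher and 1 lower, beside 2277 and 2394 of all 11205 rows. Leaving out members with at least 20% of windows shared, an alternative chosen after seeing the data, gave 5 lower and 17 higher. The median of 0.21 became -0.0103 with library totals and 0.0786 as the residual of log2 fold changes on level, GC content and coding length, where EBNA1BP2 turned to -0.03; the cause was not tested. A replicate block gave 15 higher, 9 lower and a median of 0.18, in a fit that called 6094 of all 11205 rows. Same-numbered libraries did not deviate together (r = -0.05 for both pairs), so the numbers were not taken to pair them. Depth limits PPAN most, with 44 counts in a wild-type library.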

Other observations

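Members on the same chromosome can share more than their function, and their positions were set beside the values. RRP1 and RRP1B lie close together on chromosome 21 (GRCh38 43789513 to 43805293 and 43659548 to 43696079), and URB1 lies on the same chromosome, so all 3 members there rose. Of 102 tested genes on chromosome 21, 38.2% were higher and 30.4% lower, with a median log2 fold change of -0.01. On chromosome 8, MAK16 on the short arm fell, whereas of the 2 members above 45 Mb, RRS1 rose and BOP1 fell. There 34.8% of 250 tested genes were higher and 29.6% lower. Both members on the X chromosome, GNL3L and LAS1L, rose, beside 35.9% of 410 tested genes there. These positions were looked at after the values were seen.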
